A study of Bos taurus with 9 samples.

Results

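*GATA4*, *GATA5*, *GATA6*, *SOX17*, *PDGFRA*, *HNF4A*, *FOXA2*, *RSPO3* and *PECAM1*, 9 of the 21512 genes in the expression table, are genes linked to the hypoblast and were taken by symbol. They were followed embryo by embryo in 5 WT and 4 *TEAD4* KO bovine blastocysts at D8, all produced *in vitro* with the semen of 1 stud bull. KO embryos came from oocytes microinjected with *Cas9* mRNA and a guide against *TEAD4* and carried only frame-disrupting indels, which may differ between embryos. By the study's classification the WT embryos, which carried no mutated allele, were those of the injection control group, microinjected with *Cas9* mRNA alone. Each library, called WT_1 to WT_5 or TE_1 to TE_4 for the KO embryos, holds the mRNA of 1 whole blastocyst, so trophectoderm, epiblast and hypoblast were measured together. Values are in TPM, a length-corrected share of the transcripts that sums to 1000000 in each library.

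The hypoblast, or primitive endoderm, is the epithelium that separates from the epiblast inside the inner cell mass (ICM) and later lines the yolk sac. FGF signalling through ERK favours it over the epiblast. GATA6 acts at the start of this choice, and PDGFRA, SOX17, GATA4, HNF4A and FOXA2 mark successive steps of the lineage. In cattle the lineage is still being set aside around hatching, and GATA6 protein is also found in the trophectoderm of the bovine blastocyst.

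*TEAD4* mRNA did not separate the genotypes. It was 18.0, 52.5, 54.3, 36.5 and 43.4 TPM in WT_1 to WT_5 and 42.8, 41.8, 12.5 and 22.2 TPM in TE_1 to TE_4. The log2 fold change, KO minus WT, was −0.51 with an SE of 0.42 (adjusted p = 0.947 from limma). TPM do not show indels, and a frame-disrupting indel need not remove the transcript, so these values neither check nor contradict the labels. Between 14776 and 16678 genes were above 0 TPM per library. WT_1 had the lowest *SOX2* and *NANOG* of the WT embryos, at 3.89 and 0.127 TPM, and TE_3 the lowest *SOX2* of all, at 2.26 TPM. Where leaving out these embryos moved the difference of a member by over 1.5 times or ended an overlap, both values are given.

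The genotypes were compared gene by gene as log2(TPM + 1) by limma, which fits 1 linear model per gene and shares variance estimates between genes. A median above 0.1 TPM left 14599 genes. All members but *FOXA2* passed this filter. None of the 8 tested members was called changed, that is, at an adjusted p under 0.05 from limma with an absolute log2 fold change above 1, where 3 of all genes (0.0205%) were called. At an unadjusted p under 0.05 there was 1 member, *GATA4*, against 861 of all genes (5.90%). The log2 fold change was below 0 for 5 members and above 0 for 3, and 5 to 7 of the 8 were below 0 over the alternative settings. The median over the members was −0.51, and over all tested genes −0.046 with 55.8% below 0. The genes were picked with results of these embryos known, and the study itself had clustered the embryos on hypoblast genes, so this count is no independent evidence of a direction.

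**Figure D1:**
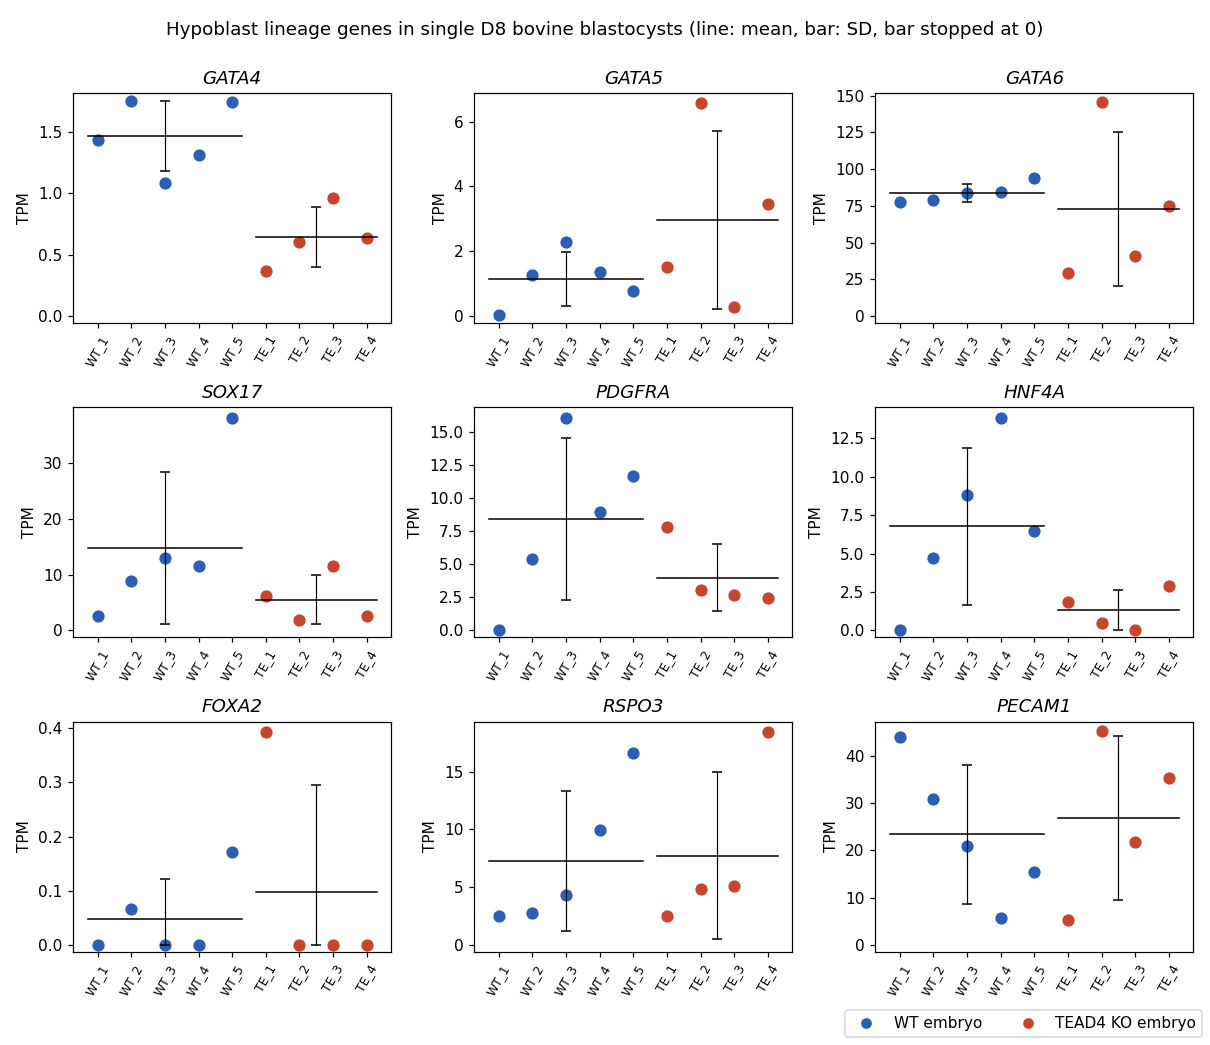
TPM of the 9 genes in each of the 5 WT and 4 *TEAD4* KO blastocysts, each point 1 embryo, with the mean as a line and the SD as a bar stopped at 0; each panel has its own linear axis. *GATA4* is the panel without overlap between genotypes (KO highest 0.957, WT lowest 1.09 TPM), and *GATA6* spans 77.6 to 93.6 TPM in WT but 29.3 to 146 TPM in KO embryos.

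*GATA4*, a zinc finger transcription factor of the endoderm, was the member that separated the genotypes. WT_1 to WT_5 had 1.43, 1.75, 1.09, 1.31 and 1.74 TPM, and TE_1 to TE_4 had 0.367, 0.600, 0.957 and 0.638 TPM. Every KO embryo lay below every WT embryo, which held for 179 of the 14599 tested genes (1.23%). Means were 1.46 ± 0.284 TPM in WT (SD, n = 5) and 0.640 ± 0.243 TPM in KO (SD, n = 4). The log2 fold change of −0.59 (SE 0.20) had an exact two-sided permutation p = 0.0159, the smallest that 5 against 4 embryos can give. It did not pass the correction across all genes (adjusted p = 0.684 from limma). At these low levels the pseudocount of 1 TPM shrinks the difference, which was −1.12 on the log2(TPM + 0.1) scale. Separation was lost under both other scalings: with median-of-ratios size factors the highest KO embryo had 1.01 and the lowest WT embryo 0.989, and the exact permutation p was 0.0317, as with quantile normalization. In whole embryos, fewer cells that express a gene and less of its RNA per cell cannot be told apart.

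*GATA5*, a close relative of *GATA4* that also acts in endoderm, differed between genotypes in the other direction on average. It was 0.0441, 1.28, 2.30, 1.36 and 0.773 TPM in the WT embryos and 1.504, 6.56, 0.265 and 3.46 TPM in the KO embryos. TE_2 and TE_4 were above every WT embryo, whereas TE_3 was above WT_1 only. The difference, a log2 fold change of 0.68 (SE 0.49), was within the spread between embryos (adjusted p = 0.931 from limma; exact permutation p = 0.270). It was 0.27 without TE_2, 0.44 without WT_1, 1.13 without TE_3 (SE 0.44, adjusted p = 0.591 from limma) and 1.09 with a pseudocount of 0.1 TPM. In TE_2, the embryo with the highest *GATA5*, *GATA4* was below every WT embryo, and across the 9 embryos Pearson's r between the 2 genes was −0.54 (exact permutation p = 0.136, adjusted p = 0.556; Spearman's rho −0.62, exact permutation p = 0.0857, adjusted p = 0.447; r −0.74 without TE_1 and WT_2).

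*GATA6* was the most abundant member in every embryo. WT embryos had 77.6, 79.0, 84.0, 84.6 and 93.6 TPM, whereas TE_1 to TE_4 had 29.3, 146, 40.6 and 74.7 TPM. The WT values lay within 1.21-fold of each other and the KO values within 4.97-fold, with 3 KO embryos below and 1 above the whole WT range. The means, 83.8 ± 6.30 TPM in WT (SD, n = 5) and 72.6 ± 52.4 TPM in KO (SD, n = 4), did not differ beyond this spread (log2 fold change −0.47, SE 0.38, adjusted p = 0.947 from limma; exact permutation p = 0.254). Without TE_2, the KO values of *GATA6* as well as *GATA4* all lay below the lowest WT value, with 604 of 14661 genes (4.12%) in this position, and the log2 fold change was −0.89 (SE 0.29, adjusted p = 0.457 from limma). It shrank to −0.13 without TE_1, to −0.28 without TE_3 and to −0.31 without WT_1 and TE_3.

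The KO values of *GATA6* were more widely spread than its WT values. The SD of its log2 values was 0.105 in WT and 1.00 in KO embryos, a log2 ratio of 3.25. The exact two-sided permutation p of 0.0317 was not adjusted for the 8 members tested. As group means were not removed first, this test does not isolate the spread from a difference in means. A ratio at least as high was found in 0.315% of tested genes. KO embryos were, however, the more variable group for 70.1% of the 14591 genes with a ratio, with a median of 0.503. The ratio was 2.62 with size factors and 2.30 with quantile normalization, and leaving out 1 embryo at a time gave 2.67 to 4.01, with an exact permutation p of 0.0286 to 0.0714 that was above 0.05 in 7 of 9 cases. For the other 7 members the exact permutation p with all 9 embryos was 0.0952 or higher. It was lowest for *PDGFRA*, which varied more in WT with all 9 embryos (log2 ratio −1.35). This direction rested on WT_1: the ratio was 0.079 without it and 0.281 without WT_1 and TE_3, and below 0 in the other runs.

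*SOX17*, an endodermal SOX factor, varied over a wide range in both genotypes. WT embryos had 2.52, 8.89, 12.9, 11.5 and 38.1 TPM and KO embryos 6.08, 1.91, 11.5 and 2.52 TPM. All KO embryos lay below the WT mean of 14.8 ± 13.6 TPM (SD, n = 5), but WT_1 was as low as TE_4 and TE_3 was as high as WT_4. A log2 fold change of −1.12 (SE 0.63) did not pass (adjusted p = 0.895 from limma; exact permutation p = 0.175). Without WT_1 it was −1.55 (SE 0.56, adjusted p = 0.678 from limma), and without WT_5, the highest embryo, −0.69.

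*HNF4A*, a nuclear receptor of the visceral endoderm and liver, had the log2 fold change farthest from 0 among the members with all 9 embryos, although *SOX17* was farther with array weights (−1.84 against −1.70), without TE_3 (−1.51 against −1.17) and without WT_1 and TE_3 (−1.95 against −1.80). It was 0, 4.74, 8.79, 13.8 and 6.48 TPM in WT_1 to WT_5 and 1.85, 0.495, 0 and 2.90 TPM in TE_1 to TE_4. All WT embryos but WT_1 lay above all KO embryos, and the gene was listed at 0 in WT_1 and TE_3. The log2 fold change was −1.51 (SE 0.70, adjusted p = 0.836 from limma; exact permutation p = 0.143), and it was below 0 under every alternative run, from −2.14 to −1.17. Without WT_1, *HNF4A* joined *GATA4* among genes whose KO values all lay below the WT values, 324 of 14733 (2.20%). The log2 fold change was then −2.14 (SE 0.48, adjusted p = 0.358 from limma). The exact permutation p was 0.0286, the smallest that 4 against 4 embryos can give. This p follows from omitting the only WT embryo that overlapped with KO.

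*FOXA2*, a forkhead factor of definitive and visceral endoderm, was at or close to 0 in every embryo. It was listed at 0 in WT_1, WT_3 and WT_4 and in TE_2, TE_3 and TE_4. WT_2 and WT_5 had 0.0656 and 0.171 TPM and TE_1 had 0.393 TPM (these levels are too low to use *FOXA2* as a marker of the lineage here). As its median was 0 it did not pass the filter, and with no filter its log2 fold change was 0.056 (SE 0.11, adjusted p = 0.944 from limma).

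*PDGFRA*, the receptor for PDGF-A on hypoblast cells, was present in all embryos but nearly absent from WT_1. WT embryos had 0.0277, 5.43, 16.1, 8.95 and 11.7 TPM and KO embryos 7.80, 3.05, 2.69 and 2.44 TPM. TE_2, TE_3 and TE_4 lay below all WT embryos except WT_1, and TE_1 lay among the WT embryos. With all embryos the log2 fold change was −0.55 (SE 0.71, adjusted p = 0.982 from limma; exact permutation p = 0.556). Without WT_1 it was −1.23 (SE 0.43, adjusted p = 0.655 from limma), with an exact permutation p = 0.0571. It was −1.13 without WT_1 and TE_3, and −0.86 without TE_1. It was nearer to 0 without WT_3 (−0.22), without WT_5 (−0.33) and with a pseudocount of 0.1 TPM (−0.18), and −1.03 with array weights.

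*RSPO3*, a secreted R-spondin that amplifies WNT signals, did not separate the genotypes. It was 2.47, 2.78, 4.33, 9.91 and 16.6 TPM in WT and 2.46, 4.86, 5.13 and 18.4 TPM in KO embryos. The ranges coincided, and the log2 fold change of 0.066 (SE 0.59, adjusted p = 0.994 from limma, exact permutation p = 0.873) changed sign under 6 of 17 alternatives. It was −0.17 without WT_1, 0.13 without TE_3 and −0.11 without WT_1 and TE_3.

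*PECAM1*, an adhesion molecule best known from endothelium and also found in the ICM, was second to *GATA6* by WT mean, but in WT_4, WT_5 and TE_1 other members were higher. WT embryos had 43.9, 30.8, 20.9, 5.66 and 15.5 TPM and KO embryos 5.24, 45.2, 21.9 and 35.3 TPM. Both ranges were again almost the same (log2 fold change 0.12, SE 0.63, adjusted p = 0.994 from limma, exact permutation p = 0.810). The sign changed under 3 of 17 alternatives, and the log2 fold change was 0.41 without WT_1 and 0.40 without WT_1 and TE_3. Endothelial and blood markers gave no value beside it that moved with genotype. *CDH5* and *PTPRC* were at 0 in all 9 embryos, 3 of the 10 markers passed the filter and none was called, and the summed level of the list was 4.18 to 36.5 TPM in WT and 4.04 to 20.5 TPM in KO embryos.

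**Figure D2:**
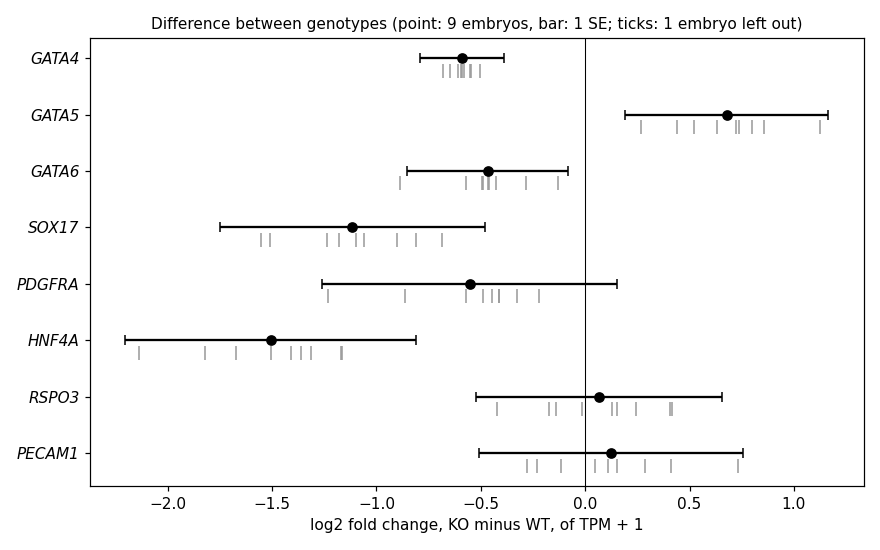
Log2 fold change of TPM + 1, KO minus WT, for the 8 tested genes: points are the values over 9 embryos, bars 1 SE, and grey ticks the values with 1 embryo left out at a time. *GATA4*, *GATA6*, *SOX17*, *PDGFRA* and *HNF4A* keep to the left of 0 in all ticks and *GATA5* to the right, while *RSPO3* and *PECAM1* cross 0.

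By WT mean the order was *GATA6* (83.8 TPM), *PECAM1* (23.4), *SOX17* (14.8), *PDGFRA* (8.44), *RSPO3* (7.23), *HNF4A* (6.77), *GATA4* (1.46), *GATA5* (1.15) and *FOXA2* (0.0472). *GATA6* exceeded *PECAM1* in 9 of 9 embryos, and *GATA5* exceeded *FOXA2* in 9 of 9. The other neighbours in this order were not separated, the higher one being above the lower in 3 to 6 of 9 embryos. The summed level of the members was 128 to 185 TPM in WT and 55.0, 208, 83.0 and 140 TPM in TE_1 to TE_4, and *GATA6* held the largest share in each embryo.

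The embryos differed in which members set them apart. WT_1 was below the other 4 WT embryos for 6 members (*GATA5*, *GATA6*, *SOX17*, *PDGFRA*, *HNF4A* and *RSPO3*) and above them for *PECAM1*. TE_1 was below all WT embryos for *GATA4*, *GATA6*, *RSPO3* and *PECAM1*, and TE_4 for *GATA4*, *GATA6* and *SOX17*. TE_2 was below all WT embryos for *GATA4* and *SOX17* but above them for *GATA5*, *GATA6* and *PECAM1*, and TE_3 was below for *GATA4* and *GATA6*. Apart from *GATA4*, no member was thus below or above WT in all 4 KO embryos. Some margins were very small: *RSPO3* was 2.461 TPM in TE_1 and 2.467 TPM in WT_1, and *SOX17* 2.521 TPM in TE_4 and 2.523 TPM in WT_1. With size factors or quantile normalization no KO embryo was below all WT embryos for *RSPO3* or *PECAM1*. Nor was any above them all for *PECAM1*. With WT_1 and TE_3 both left out, a choice made after seeing the data, *GATA4*, *HNF4A* and *SOX17* had all KO values below all WT values, with 712 of 14693 genes (4.85%) in that position.

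To set the hypoblast genes against the epiblast, each member was compared with *SOX2* and *NANOG*, transcription factors of the epiblast, and with *CDX2* and *GATA3*, of the trophectoderm. *NANOG* was 0.127, 29.3, 53.4, 262 and 90.2 TPM in WT_1 to WT_5 and 53.3, 2.70, 3.55 and 26.3 TPM in TE_1 to TE_4. *SOX2* was 3.89, 19.5, 68.2, 90.4 and 27.7 TPM in WT and 30.6, 21.0, 2.26 and 42.4 TPM in KO embryos. Both ranged widely in each genotype and the ranges overlapped. The log2 ratio of *GATA6* to *NANOG*, each with 1 TPM added, was 1.32 ± 2.91 in WT (SD, n = 5) and 2.28 ± 2.61 in KO embryos (SD, n = 4). The difference of 0.96 did not exceed the spread (exact two-sided permutation p = 0.587) and was −0.047 without TE_2. This ratio was highest in WT_1 (6.12), where *NANOG* was 0.127 TPM. As *GATA6* is not confined to the hypoblast, the ratio is no measure of the hypoblast share. For *SOX17* to *SOX2* the ratio was −1.25 ± 1.35 in WT and −1.69 ± 2.50 in KO embryos (difference −0.44, exact two-sided permutation p = 0.730), and the difference was 0.21 without TE_4.

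*HNF4A* followed *NANOG* closely across the 9 embryos, with Pearson's r 0.923 (exact permutation p = 0.00049, adjusted over 60 relations 0.0294) and Spearman's rho 0.904 (exact permutation p = 0.00166, adjusted 0.0998). The coefficient was 0.872 without WT_1 and TE_3, and 0.954 with the genotype means removed. *HNF4A* and *SOX2* had r 0.868 (exact permutation p = 0.00154, adjusted 0.0461) and rho 0.812 (exact permutation p = 0.0113, adjusted 0.149), with r 0.711 without the same embryos and 0.644 (exact permutation p = 0.164) within the 6 embryos described next. *NANOG* was below 4 TPM in WT_1, TE_2 and TE_3 and above 20 TPM in the other 6, and *HNF4A* was lowest in those same 3 embryos. Within the 6 embryos, chosen after seeing the data, r for *HNF4A* and *NANOG* was 0.721 (exact permutation p = 0.0917), so the relation rests in part on the 3 low embryos. These p-values treat embryos as exchangeable across genotype.

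*PDGFRA* went the same way as *HNF4A*, though no adjusted p passed. For *PDGFRA* and *NANOG* r was 0.854 (exact permutation p = 0.00318, adjusted 0.0636; rho 0.867, exact permutation p = 0.00451, adjusted 0.135), and it was 0.815 without WT_1 and WT_3 but 0.527 (exact permutation p = 0.236) within the 6 embryos with high *NANOG*. *PDGFRA* and *HNF4A* themselves had r 0.801 (exact permutation p = 0.00796, adjusted 0.120; rho 0.803, exact permutation p = 0.0124, adjusted 0.149) and 0.721 without the same embryos, and r 0.557 (exact permutation p = 0.256) within those 6. *PECAM1* ran opposite to *NANOG*, with r −0.74 (exact permutation p = 0.0246, adjusted 0.255; rho −0.83, exact permutation p = 0.00827, adjusted 0.149) and −0.70 without TE_1 and WT_4, and −0.74 (exact permutation p = 0.122) within those 6. For *GATA6* and *NANOG*, in contrast, r was −0.067. Among the 28 pairs of members 20 had a positive r, with a median of 0.226 and a range of −0.61 to 0.801.

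**Figure D3:**
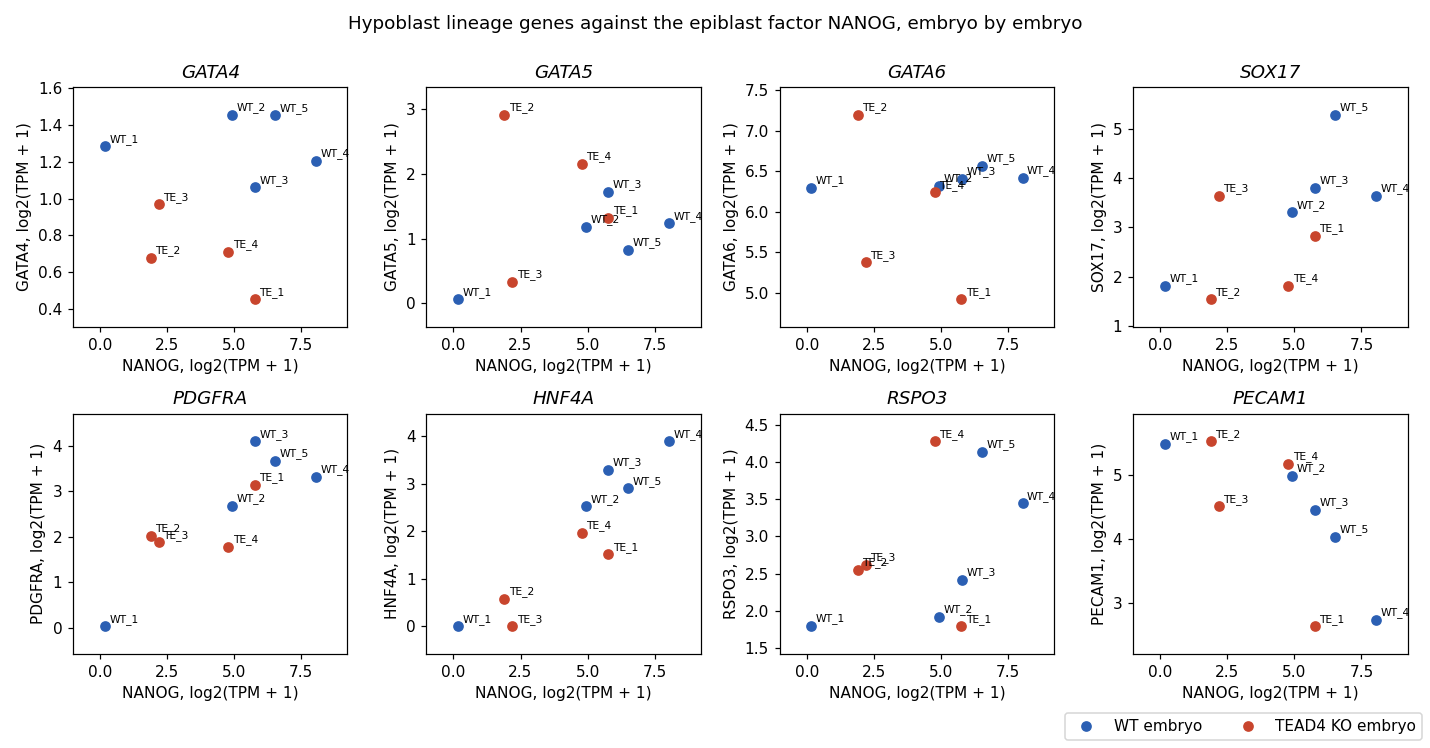
Log2(TPM + 1) of each of the 8 tested genes against that of *NANOG*, 1 labelled point per embryo, WT and *TEAD4* KO in different colours. *HNF4A* and *PDGFRA* climb with *NANOG* (r 0.923 and 0.854) and *PECAM1* declines (r −0.74), with WT_1, TE_2 and TE_3 apart at low *NANOG*.

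**Figure D4:**
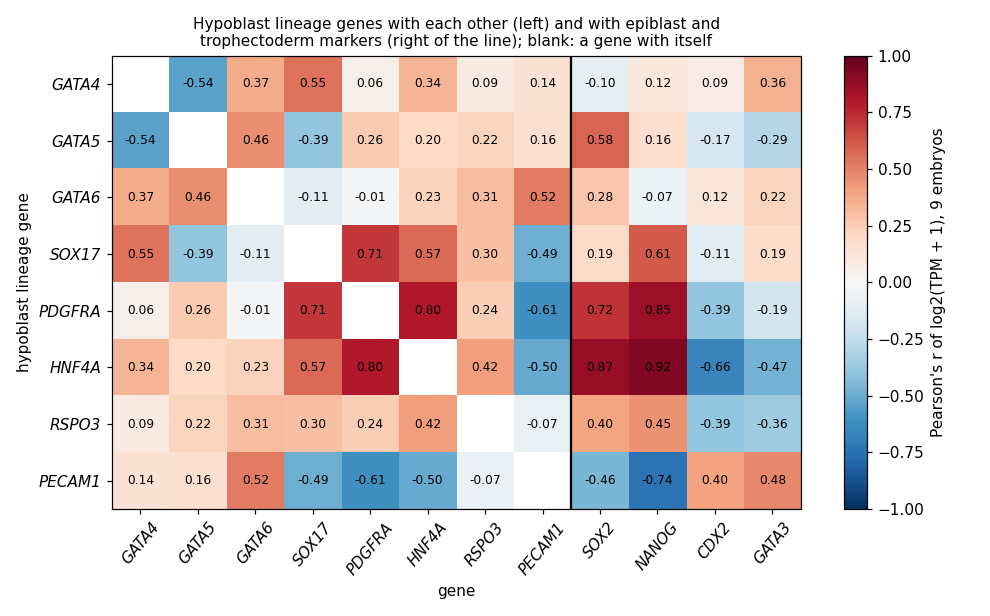
Pearson's r of log2(TPM + 1) over the 9 embryos between the 8 tested genes, left of the line, and with the epiblast markers *SOX2* and *NANOG* and the trophectoderm markers *CDX2* and *GATA3*, right of it. The strongest cells are *HNF4A* with *NANOG* (0.923) and with *SOX2* (0.868), and 20 of 28 pairs of members are positive.

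For each member the 3 genes with the most similar profile were taken from 11219 genes with a median of at least 1 TPM, by Pearson's r of log2(TPM + 1) over the 9 libraries, as a description. They were *FILIP1L* (0.969), *CALB1* (0.940) and *EZH1* (0.939) for *GATA4*, and *CCDC70* (0.948), *SNRPA* (0.948) and *APLN* (0.938) for *GATA5*. *GATA6* had *CCDC125* (0.979), *CDC7* (0.978) and *TAF4B* (0.976), and *SOX17* had *PYY2* (0.919), *TACC2* (0.916) and *GPR160* (0.909). *PDGFRA* was closest to *ADGRE5* (0.943), *IHH* (0.938) and *LEFTY2* (0.936), of which the latter 2 encode secreted signals. *HNF4A* was closest to *GCM1* (0.971), *FLRT3* (0.969) and *PPP2R2B* (0.953). The coefficients were lowest for *RSPO3*, with *ENSBTAG00000054521* (0.866), *H2AC25* (0.856) and *ZFP3* (0.841), and *PECAM1* had *TAX1BP3* (0.983), *PTGFRN* (0.968) and *ST6GALNAC1* (0.965).

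Among 12 further transcription factors of the hypoblast and early endoderm, 10 passed the filter and none was called. *TCF7L1*, a WNT pathway repressor, had the lowest p, with 11.6 ± 1.49 TPM in WT (SD, n = 5) and 7.11 ± 2.69 TPM in KO embryos (SD, n = 4; log2 fold change −0.69, SE 0.30, adjusted p = 0.833 from limma). *SOX18* (6.54 and 3.62 TPM) and *OTX2* (47.2 and 28.2 TPM) also had the lower mean in KO embryos. The median log2 fold change of this list was −0.16, nearer to that of all genes than the −0.51 of the members.

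Of the ligands and receptors related to *PDGFRA*, 3 of 6 passed the filter and none was called. *PDGFA*, which encodes its main ligand, was at 28.6 ± 11.7 TPM in WT (SD, n = 5) and 26.0 ± 10.1 TPM in KO embryos (SD, n = 4). *PDGFB* was at 1.23 and 2.63 TPM (log2 fold change 0.72, SE 0.32, adjusted p = 0.823 from limma) and *PDGFD* at 0.429 and 0.361 TPM. For *RSPO3*, 4 of 8 related R-spondins, LGR receptors and the ubiquitin ligases that they inhibit passed and none was called. *LGR4* was at 3.67 and 2.93 TPM in WT and KO embryos, *RNF43* at 0.408 and 0.718 TPM and *ZNRF3* at 1.20 and 1.32 TPM, and *LGR5* stood at 4.58 TPM in TE_2 against at most 0.249 TPM elsewhere.

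The 12 genes of the FGF to ERK pathway all passed the filter, none was called and 9 had the lower mean log2 value in KO embryos (median log2 fold change −0.22). *FGFR2*, an FGF receptor of the early hypoblast and trophectoderm, was 1.70, 1.67, 1.83, 1.71 and 2.95 TPM in WT and 1.63, 1.37, 1.43 and 0.786 TPM in KO embryos. These values did not overlap, as for 1.23% of all genes (exact two-sided permutation p = 0.0159, adjusted p = 0.920 from limma), although TE_1 was close to the lower WT embryos. They overlapped with size factors (exact permutation p = 0.175) and with quantile normalization (exact permutation p = 0.190). *SPRY2*, a feedback inhibitor induced by ERK, was at 23.0 and 8.67 TPM (log2 fold change −1.13, SE 0.59, adjusted p = 0.878 from limma), and *FGFR3* at 17.6 and 9.18 TPM. *DUSP4*, an ERK phosphatase, was low, at 0.176 and 0.639 TPM.

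Genes known as products of a maturing hypoblast or endoderm epithelium were then considered. Whole embryos do not show which cells made these transcripts. In WT_1, where *HNF4A* was 0 and *PDGFRA* 0.0277 TPM, *CTSV* was 978 and *APOA1* 961 TPM, but *FLRT3* 0.295 TPM. All 13 genes of the basement membrane passed the filter, with none called and a median log2 fold change of 0.17. *SPARC*, a collagen-binding matrix protein, was 213, 121, 132, 170 and 308 TPM in WT and 122, 534, 279 and 828 TPM in KO embryos, with TE_2 and TE_4 above all WT embryos (log2 fold change 0.97, SE 0.48, adjusted p = 0.847 from limma). *NID2* was at 6.23 and 14.2 TPM, *P4HA2* at 60.2 and 36.1 TPM and *HSPG2* at 1.25 and 0.807 TPM. Of 10 genes for endocytosis and adhesion 8 passed and none was called (median −0.27). *FLRT3*, an adhesion protein of the endoderm, was 0.295, 8.15, 9.31, 11.5 and 8.25 TPM in WT and 3.17, 0.122, 0.279 and 3.45 TPM in KO embryos (log2 fold change −1.58, SE 0.68, adjusted p = 0.818 from limma). As with *HNF4A*, WT_1 was the only WT embryo that overlapped with KO, and without it the log2 fold change was −2.17. Separation then follows from the omission, so no p-value is given. Without WT_1, 324 of 14733 genes (2.20%) had all KO values below all WT values. *KDR* was at 0.156 and 0.567 TPM, *CTSV* at 645 and 1209 TPM and *CDH2* at 0.637 and 0.0889 TPM.

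Of 18 listed secreted proteins of visceral endoderm and liver found in the table, 11 passed the filter and none was called (median −0.34). *APOB*, *TTR* and *AFP*, which a mature visceral endoderm makes, were at 0 in all 9 embryos. *APOA1*, in contrast, was abundant and ranged from 88.8 TPM in TE_4 to 1821 TPM in TE_3. *AHSG* was at 0.393 and 1.56 TPM in WT and KO embryos, *APOC3* at 2.24 and 0.614 TPM, *APOA2* at 1.49 and 0.307 TPM and *TMPRSS2* at 0.772 and 0.216 TPM. Of 12 signals from the hypoblast to the epiblast, 7 passed and none was called (median 0.14), and *CER1*, an antagonist of NODAL and BMP, was at 0 in all 9 embryos. *IHH* was 1.17, 6.59, 9.05, 7.70 and 8.26 TPM in WT and 6.38, 2.22, 1.95 and 2.98 TPM in KO embryos, with WT_1 lowest of all and the other 4 WT embryos above every KO embryo (log2 fold change −0.71, SE 0.48, adjusted p = 0.923 from limma). Without WT_1 the log2 fold change was −1.12, and separation again follows from omitting the only WT embryo that overlapped (2.20% of all genes separated this way). Under both other scalings, with all 9 embryos, the highest KO value was above every WT value. *BMP4* was at 3.27 and 5.26 TPM, *SFRP1* at 0.143 and 0.293 TPM and *NOG* at 0.437 and 0.763 TPM.

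At an unadjusted p under 0.05 from limma there were 2 genes each among those for endocytosis and adhesion (*FLRT3* and *KDR*) and the secreted proteins (*AHSG* and *APOC3*). There was 1 among the further transcription factors (*TCF7L1*) and 1 among the PDGF genes (*PDGFB*), and there were 0 among the R-spondin, FGF to ERK, basement membrane and signal genes. These shares were set against 5.90% of all genes, and as a description only.

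Markers of the other cells that a blastocyst sample could hold did not separate the genotypes. Of 12 trophectoderm markers all passed the filter and none was called. The mean log2 value was lower in KO embryos for 10 of them (median log2 fold change −0.25). Their summed level was 4654 to 21040 TPM in WT and 6930 to 13840 TPM in KO embryos. It came mainly from *KRT8* (means 7537 and 5646 TPM in WT and KO) and *KRT18* (3721 and 2849 TPM). The epiblast markers gave 1046 to 2898 TPM in WT and 1725 to 2794 TPM in KO embryos, with 10 of 11 in the table tested and none called. Cumulus cell markers summed to 20.3 to 37.7 TPM in WT and 4.55 to 32.4 TPM in KO embryos. Of the 10 markers 6 were tested, none was called and 5 had the lower mean log2 value in KO embryos (median −0.30). Medians of this size were thus not particular to the lists related to the hypoblast. At an unadjusted p under 0.05 from limma there was 1 trophectoderm marker (*TFAP2A*, 8.28 and 2.83 TPM), 1 epiblast marker (*TDGF1*, 11.5 and 2.42 TPM) and no cumulus, endothelial or blood marker. The 15 housekeeping genes were all tested and none was called, with 1 at that unadjusted p (*GAPDH*, 2358 and 1424 TPM). The sum of the trophectoderm markers was highest, and that of the epiblast markers lowest, in WT_1, the embryo with the lowest *PDGFRA* and *GATA5*. These sums follow *KRT8*, *KRT18* and *POU5F1* above all and are no measure of cell numbers. The part of the balance between cell types in the values of the hypoblast genes was not tested.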

How the data were processed

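Single D8 blastocysts, 5 WT and 4 *TEAD4* KO, gave 1 library each. The table deposited by the authors holds TPM (length-corrected transcript shares) for 21512 genes. The submitters' processing notes name FastQC, fastp and kallisto, and the study used DESeq2 on counts. The genome build, the annotation and tool versions are not given in the sources used here, so no coordinates or sequences are printed. The sample labels and the study's methods describe different extraction kits, library kits and sequencers, and nothing in the table tells them apart. The study states a range of read numbers over its samples but none per library. TPM keep no read numbers either, so the depth of each single library is unknown. No count test was run, and low values have unknown precision. Columns were assigned to a genotype by their names, and nothing links a column to a single deposited sample of its genotype. The numbers in the column names were not used as pairs. No column of values was left unused (0). The limma p-values set a difference against the spread between these embryos, with variance estimates shared between genes.

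The values were filtered at a median above 0.1 TPM and taken as log2(TPM + 1). WT and KO were compared by limma (version 3.58.1, R version 4.3.3, eBayes with a mean trend), and p-values were adjusted by Benjamini-Hochberg over all filtered genes. Single genes, ratios, the spread and correlations were tested by exact two-sided permutation over embryos (Python 3.11.15, numpy 2.4.6, pandas 2.3.3, scipy 1.17.1, matplotlib 3.10.9). The smallest p that 5 against 4 embryos allow is 0.0159. The script was tested on simulated data. All 9 members matched RefSeq symbols of cattle.

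The members, the lists of related genes and the tests were chosen with earlier results of these data known. Named genes are *TEAD4*, the members, up to 4 genes per list with the largest absolute moderated t among tested genes, markers needed to check the lineage, and the 3 most similar genes per member. A gene that this rule names is not reported here. *APOA1*, *KRT8*, *KRT18* and genes at 0 in all embryos were picked with their values in view. So were *FGFR2*, *FLRT3* and *IHH* for the runs of list genes under other scalings and without WT_1. Each of these settings was tried in turn: a pseudocount of 0.1 TPM, a median above 1 TPM or no filter, size factors, quantile normalization, no trend, array weights and each embryo left out. Leaving out WT_1 and TE_3 together, and the 6 embryos with *NANOG* above 20 TPM, were chosen after seeing the data.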

Additional observations from a re-analysis of the deposited data

Results flagged for a closer look

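Among 32 groups of values examined, 3 held an embryo far from the rest of its genotype by Dixon's test at the 95% level, where chance gives about 1 in 20. *PDGFRA* in TE_1 was 7.80 TPM against at most 3.05 TPM in the other KO embryos. *FOXA2* was 0.393 TPM in the same embryo and 0 in the other KO embryos. With the others at 0, any value above 0 would have been flagged, so the flag of *FOXA2* carries no weight. *RSPO3* in TE_4 was 18.4 TPM, with 5.13 TPM in the next KO embryo.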

How the results depend on the processing

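No member was called changed under any of the 17 alternatives, and *GATA4*, *GATA6*, *SOX17*, *PDGFRA* and *HNF4A* kept a log2 fold change below 0 and *GATA5* one above 0 in all of them. *RSPO3* was −0.35 with array weights, −0.11 without WT_1 and TE_3, and −0.42 to 0.42 with 1 embryo left out, and *PECAM1* −0.28 to 0.73 with 1 embryo left out. The 3 genes called among all genes became 8 with a pseudocount of 0.1 TPM, 8 with a median above 1 TPM, 5 with size factors, 6 with quantile normalization, 5 without trend, 5 without WT_1 and TE_3, and 0 to 10 with 1 embryo left out (10 without TE_3, and 0 with any of TE_1, TE_2, TE_4, WT_3 or WT_4 omitted). Members without overlap between genotypes numbered 1, but 0 with size factors, 0 with quantile normalization, 3 without WT_1 and TE_3, and 1 to 2 with 1 embryo left out, where fewer embryos make separation easier. With 1 embryo left out, the difference in log2 ratio ran from −0.047 (without TE_2) to 2.16 for *GATA6* to *NANOG* and from −1.65 to 0.21 (without TE_4) for *SOX17* to *SOX2*. The cause of these shifts was not tested. No paired analysis was possible because the titles of WT and KO samples share no replicate number. The depth of each single library is unknown, so the reliability of values below about 1 TPM cannot be stated embryo by embryo. These include all of *FOXA2*, the KO values of *GATA4* and 3 of 9 values of *GATA5*. They also include *HNF4A* in WT_1, TE_2 and TE_3 (0, 0.495 and 0 TPM). In WT_1, *PDGFRA* (0.0277 TPM) and *NANOG* (0.127 TPM) were below 1 TPM as well. The relation of *HNF4A* with *NANOG* rests in part on these values.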
